A study of Mus musculus with 4 samples.

Results

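The villus-bottom early enterocytes of the control small intestine numbered 210 cells, 124 in control library 1 and 86 in control library 2, of 1289 cells kept in these libraries and 3304 in the series. They were chosen from their own counts. Kept barcodes held 1000 counts or more and 300 genes or more, with mitochondrially encoded genes giving up to 30% of counts. A kept cell entered the villus-bottom gate with at least 2 counts summed over the markers Apol10a, Ms4a18, Pycard, Ccl25 and Gstm3. It also had to hold fewer than 2 counts over the villus-tip genes Ada, Slc28a2, Enpp3, Cybrd1 and Tmprss15, and fewer than 3 over the mid-villus genes Lct, Pck1, Cyp3a25, Leap2 and Cyp2b10. Fewer than 4 counts were allowed over the goblet genes Muc2, Fcgbp, Clca1 and Spink4, and fewer than 2 over the crypt genes Lgr5, Smoc2, Axin2, Slc12a2, Igfbp4, Myb and Cps1. The levels of these 26 genes are therefore a description of the gate and support nothing.

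The study asks what the loss of the Hippo pathway kinases LATS1 and LATS2 does to the intestinal epithelium, and it has 2 groups of 2 libraries. Lats-deleted libraries came from adult C57BL/6J mice of the genotype Lrig1-CreERT2 Lats1fl/fl Lats2fl/fl, in which tamoxifen switches on a Cre recombinase. Control libraries came from adult C57BL/6J mice of the genotype Lats1fl/fl Lats2fl/fl, which carry the same loxP-flanked alleles and no Cre. Mice of both groups received 2 mg of tamoxifen in the peritoneum and were taken on day 7. The Lrig1 promoter drives the Cre in Lrig1-expressing cells, among them crypt stem cells, and their progeny inherit the deletion. The controls lack the Cre, so Lats loss and Cre activity cannot be told apart. From dissociated tissue, 5000 EpCAM+CD45-TER119-DAPI- cells a condition, which are live epithelial cells, were sorted and barcoded in droplets with inDrop v2. Whether a library stands for 1 animal is not given in the labels, and p-values thus cover the spread between libraries, which may be technical. In the comparison of gates within the Lats-deleted libraries, a library block takes out differences in level between libraries. Those p-values concern how far the gate difference varied between the 2 libraries, but only 1 residual degree of freedom is left. The test therefore leans on a spread shared across genes. A gene whose gate difference varied much between the 2 libraries can still get a low p-value.

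Enterocytes are the absorptive cells of the small intestine. They are born from stem and progenitor cells in the crypts, move up the villus over a few days and are shed at its tip. In the mouse, cells near the villus bottom are known for transcripts of antimicrobial and innate defence proteins, cells of the middle for nutrient uptake, and cells of the tip for adhesion molecules, nucleotide metabolism and apolipoproteins.

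Of the 5 markers, Ccl25 encodes the gut-homing chemokine of the small intestine and Gstm3 a glutathione transferase. Pycard encodes ASC, the adaptor of inflammasomes. Ms4a18 belongs to the family of MS4A membrane proteins, and Apol10a to the apolipoprotein L family. On GRCm38, with genes as annotated by GENCODE M21, Ccl25 lies at chr8:4325210-4360020 on the plus strand, Gstm3 at chr3:107963696-107969283 on the minus strand, and Pycard at chr7:127989708-127993867 on the minus strand. Ms4a18 lies at chr19:10997025-11018031 on the minus strand and Apol10a at chr15:77477047-77491069 on the plus strand. RefSeq promoters of GRCm38.p6, 300 bases from 250 before to 50 after a transcription start, were found for 5 of 5 markers, with 6 promoters in all because Ccl25 has 2 starts. They were searched on both strands for TTTATG, a core letter run of CDX homeobox motifs, and AGATAA, a core letter run of GATA motifs, since CDX2 and GATA4 are transcription factors of the enterocyte. The runs do not overlap. TTTATG was found in 3893 of 32851 promoters (11.9%) and AGATAA in 3672 (11.2%). Among the markers, Ccl25 and Ms4a18 hold TTTATG and Ms4a18 also holds AGATAA. These promoters and that of Lgals2 are shown 5′ to 3′ on the strand of the gene. Capitals mark the 2 runs (CATAAA is TTTATG read on the other strand). Lgals2 is outside the rule. It ranked 3 among the genes named below as higher than in mid-villus cells and 8 among those higher than in tip cells. The promoter of Dmbt1, which ranked 1 in both, is not shown. Ms4a18 is at chr19:11017914-11018213 on the minus strand, the second start of Ccl25 at chr8:4349338-4349637 on the plus strand, and Lgals2 at chr15:78855480-78855779 on the minus strand. The matches describe these letters only.
Ms4a18: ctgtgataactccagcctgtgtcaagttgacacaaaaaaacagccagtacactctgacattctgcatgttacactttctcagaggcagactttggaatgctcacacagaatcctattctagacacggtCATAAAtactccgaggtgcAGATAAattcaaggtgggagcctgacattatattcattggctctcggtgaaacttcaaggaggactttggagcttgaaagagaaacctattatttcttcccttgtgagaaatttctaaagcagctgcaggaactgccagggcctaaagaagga
Ccl25: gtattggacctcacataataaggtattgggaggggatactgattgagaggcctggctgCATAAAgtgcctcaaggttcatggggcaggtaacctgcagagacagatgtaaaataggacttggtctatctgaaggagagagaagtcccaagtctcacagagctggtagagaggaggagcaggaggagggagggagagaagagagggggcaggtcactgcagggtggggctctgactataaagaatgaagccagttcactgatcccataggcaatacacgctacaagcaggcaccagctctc
Lgals2: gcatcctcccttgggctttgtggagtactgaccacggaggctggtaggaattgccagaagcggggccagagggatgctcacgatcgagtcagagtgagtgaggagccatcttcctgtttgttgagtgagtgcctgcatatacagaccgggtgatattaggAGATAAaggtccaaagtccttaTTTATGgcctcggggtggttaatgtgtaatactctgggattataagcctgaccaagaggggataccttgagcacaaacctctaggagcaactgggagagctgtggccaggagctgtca

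All levels below are CPM, the counts of a gene summed over the cells of a gate in a library and scaled to a total of 1000000 counts, which do not correct for gene length, so they are compared between gates and not between genes. Ccl25 was at 985 CPM in the villus-bottom cells of control library 1 and 785 CPM in those of control library 2, against 607 and 651 CPM in the crypt gate, 558 and 733 CPM in the mid-villus gate and 283 and 331 CPM in the tip gate. Gstm3 was at 1134 and 808 CPM in the villus-bottom cells, against 764 and 611 CPM in crypt, 894 and 752 CPM in mid-villus and 457 and 297 CPM in tip cells. Of these 4 gates both genes were highest in the villus-bottom and lowest in the tip gate, and in the goblet gate they were lower still, at 206 and 31.3 CPM for Ccl25 and 133 and 78.3 CPM for Gstm3. Pycard was at 526 and 584 CPM in the villus-bottom cells, against 470 and 609 CPM in crypt, 179 and 220.0 CPM in mid-villus and 64.9 and 17.1 CPM in tip cells. Ms4a18 was at 232 and 309 CPM in the villus-bottom cells, against 117 and 139.8 CPM in crypt, 94.9 and 64.2 CPM in mid-villus and 20.6 and 11.4 CPM in tip cells. Apol10a was at 217 and 195 CPM in the villus-bottom cells, against 87.4 and 129 CPM in crypt, 164 and 101 CPM in mid-villus and 20.6 and 45.7 CPM in tip cells. For Pycard the crypt and villus-bottom gates did not separate, and in all 5 markers the tip cells of both libraries lay below the villus-bottom cells, which the choice of cells fixes in part. Ccl25 was seen in 71.8% and 76.7% of villus-bottom cells and in 25.4% and 7.14% of goblet cells, a type not known for it, at medians of 1440 and 1965.5 against 2106 and 2251.5 counts a cell.

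**Figure D1:**
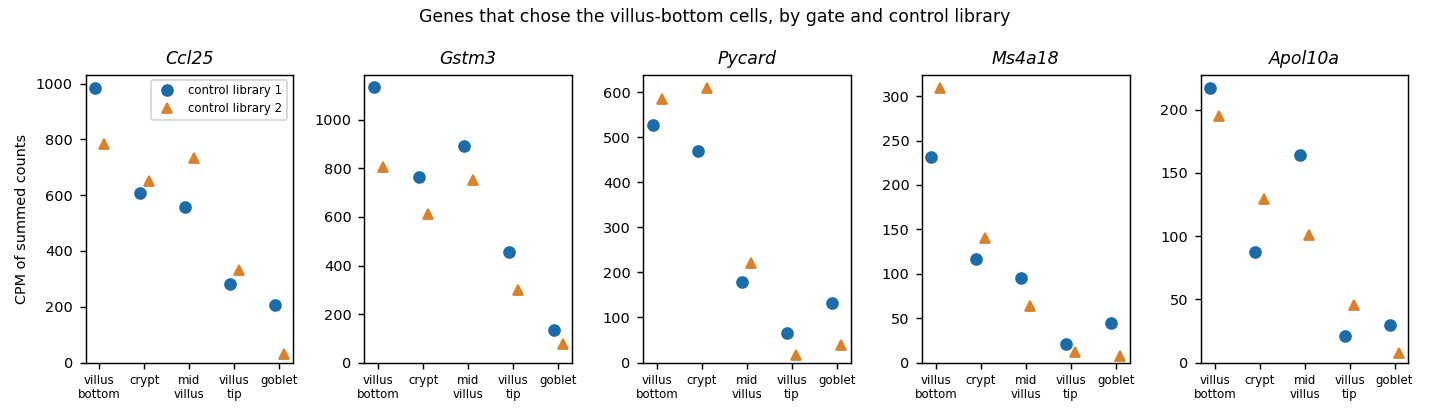
Levels of the 5 gate markers in CPM (summed counts scaled to a common total) in the villus-bottom, crypt, mid-villus, villus-tip and goblet gates, with a point for each control library. The villus-bottom points of Ccl25 are at 985 and 785 CPM and those of the tip at 283 and 331 CPM.

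The markers alone did not define the gate. At least 2 marker counts were found in 469 of 774 cells (60.6%) of control library 1 and 322 of 515 cells (62.5%) of control library 2, and 26.4% and 26.7% of these cells passed the other conditions. The mid-villus condition applied to 203 and 143 of them, the crypt condition to 173 and 129, the tip condition to 84 and 36 and the goblet condition to 15 and 5, with overlaps. The median cell of the gate held 4 marker counts in each library. Just inside the threshold, 23 and 19 cells held 2 marker counts, and just outside it 21 and 16 cells that passed the other conditions held 1. At the mid-villus limit 31 and 15 members held 2 counts, and 28 and 18 cells outside held 3. At the crypt limit 52 and 32 members held 1 count, and 28 and 24 cells outside held 2. A member showed 2 different markers most often (54 of 124 and 30 of 86 cells), and 4 and 1 cells showed all 5.

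The gated cells carried the transcripts of enterocytes. The 15 enterocyte markers, all detected, made up 2.73% and 2.87% of the counts of villus-bottom cells, against 2.15% and 2.38% in the crypt, 4.12% and 4.60% in the mid-villus, 4.69% and 4.44% in the tip and 0.772% and 0.331% in the goblet gate. Alpi, the intestinal alkaline phosphatase, was at 3872 and 3482 CPM, and Fabp2, the intestinal fatty acid-binding protein, at 3220 and 3190 CPM. Of 16 further stem cell and Wnt pathway genes, 8 were at 0 in the gate, Olfm4 and Ascl2 among them, and their sum was 0.00676% and 0.00687% of counts, against 0.0321% and 0.0436% in the crypt gate. Markers of other cell types were low. Paneth markers, of which 10 of 12 were at 0, summed to 0.00290% and 0.000573% of counts, and leukocyte markers, of which 8 of 17 were at 0, Cd3e, Cd3g and Cd3d among them, to 0.00386% and 0.00630%. Tuft markers summed to 0.00434% and 0.00401% with 7 of 13 at 0, and 14 enteroendocrine markers to 0.00579% and 0.00401% with Gcg and Pyy at 0. Of 11 stromal and endothelial markers only Col3a1 was at 0, and their sum was 0.00241% and 0.00745%. The 14 further goblet markers summed to 0.0208% and 0.0349%, with Atoh1 and Spdef at 0. The label of an enterocyte was thus borne out, while the rule alone places the cells along the villus.

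The libraries held 4731529 and 9191916 counts after Lats deletion and 2872497 and 2247269 in control. The villus-bottom sums rest on 207141 and 174601 counts, and the median cell held 1440 and 1965.5 counts, against 2087 and 2573 in the crypt, 1626.5 and 1863 in the mid-villus and 1623 and 1726.5 in the tip gate. Between any 2 of the 4 libraries, 4 to 12 kept barcodes were the same, and 1 barcode was in the gate of both control library 2 and Lats-deleted library 2. The gates were compared within each control library, as log2 ratios with 10 CPM added to each level. A gene counted as differing when it was at least 2-fold apart in the same direction in both libraries with at least 50 CPM in the higher gate. The gates were set on these cells, so these differences are a description without a test, counts of genes include those of the rule, and SDs are over n = 2 libraries.

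Against the villus tip, the villus-bottom cells held more transcripts of ribosomal proteins, of the mucosal genes Dmbt1 and Lgals2, and of the inflammasome genes Nlrp6, Casp1 and Il18, and fewer of apolipoproteins, antigen presentation and immediate early genes. Of 3111 genes with at least 50 CPM in the higher gate, 286 were higher (9.19%) and 256 lower (8.23%) in the villus-bottom cells, around a median log2 ratio of 0.03. The median mitochondrial share was 9.52% and 6.46% in villus-bottom cells and 12.7% and 12.9% in tip cells, and among cells of at most 20% mitochondrial counts 539 genes differed, against 542 in all. Dmbt1 differed most upwards among genes named by rule. It encodes DMBT1, a secreted scavenger receptor that binds bacteria (chr7:131032053-131121630, plus strand). Dmbt1 was at 2650.4 and 4267 CPM in villus-bottom cells, against 259 and 194 CPM in tip cells, a log2 ratio of 3.85 (SD 0.77). Lgals2, the gene of galectin-2 (chr15:78850860-78855529, minus strand), was at 729 and 922 CPM in villus-bottom cells, against 79.6 and 126 CPM in tip cells, a log2 ratio of 2.91 (SD 0.19). In cells thinned to 1000 counts, Dmbt1 was seen in 72.6% and 82.6% of villus-bottom cells and 20.2% and 10.7% of tip cells, and Lgals2 in 41.1% and 51.2% against 7.98% and 7.14%. Without thinning the shares for Dmbt1 were 78.2% and 89.5% against 27.6% and 20.2%, and for Lgals2 54.0% and 62.8% against 9.82% and 15.5%. Dmbt1 was also seen in 30.5% and 9.52% of thinned goblet cells, and Lgals2 in 93.2% and 90.5%, so Lgals2 marks no villus position by itself.

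Of 13 genes of antimicrobial defence and the inflammasome compared, 6 were higher at the bottom than at the tip and 0 lower by the 2-fold rule, against 9.19% and 8.23% of all genes. The median log2 ratio was 1.32, and 2 members lay below their tip level in both libraries. Lypd8, whose protein keeps flagellated bacteria off the epithelium in the mouse colon, was at 1627 and 2245 CPM in villus-bottom cells, against 265 and 360.0 CPM in tip cells. Nlrp6, an inflammasome sensor of the gut epithelium, was at 246 and 223 CPM in villus-bottom cells, against 35.4 and 51.4 CPM in tip cells. Il18, the cytokine that inflammasomes release, was at 237 and 338 CPM in villus-bottom cells, against 59.0 and 103 CPM in tip cells. Casp1, the protease of inflammasomes, was at 121 and 183 CPM in villus-bottom cells, against 14.7 and 34.3 CPM in tip cells. Pycard, their adaptor, is a gene of the rule and adds nothing to this count. Naip1, a sensor of bacterial secretion systems, and Reg3a, a bactericidal lectin, were the other members that differed. Naip1 was at 91.7 and 74.5 CPM against 20.6 and 11.4 CPM, and Reg3a at 96.6 and 126 CPM against 29.5 and 28.6 CPM. Reg1, the most counted nuclear-encoded gene of the gate after the ferritin gene Fth1, was at 14671 and 14513 CPM in villus-bottom cells, against 6393 and 7589 CPM in tip cells, and did not reach 2-fold in control library 2.

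Of 24 glutathione and redox genes, 3 were higher than at the tip (Gpx1, Gsta1 and Prdx6), near the 9.19% of all genes, and 1, Gstk1, was lower. Gpx1, a glutathione peroxidase, was at 1781 and 1695 CPM in villus-bottom cells, against 1383 and 1375 CPM in crypt, 883 and 880 CPM in mid-villus and 233 and 263 CPM in tip cells. Anpep and Enpep, peptidases of the brush border, were higher at the bottom, Anpep at 690 and 956 CPM against 171 and 194 CPM, and Cdhr2, a protocadherin of the same list, was among those lower. Cdx2, the homeobox gene of intestinal identity, was at 101 and 103 CPM in villus-bottom cells, against 90.8 and 104 CPM in crypt, 62.0 and 50.4 CPM in mid-villus and 11.8 and 34.3 CPM in tip cells. Of 21 intestinal transcription factors, Cdx2 was the only one higher than at the tip by the 2-fold rule, and Klf6 and Pparg were lower. Gata4 was at 121 and 132 CPM in villus-bottom cells and 109 and 120 CPM in tip cells, with log2 ratios near 0.13 (SD 0.01).

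**Figure D2:**
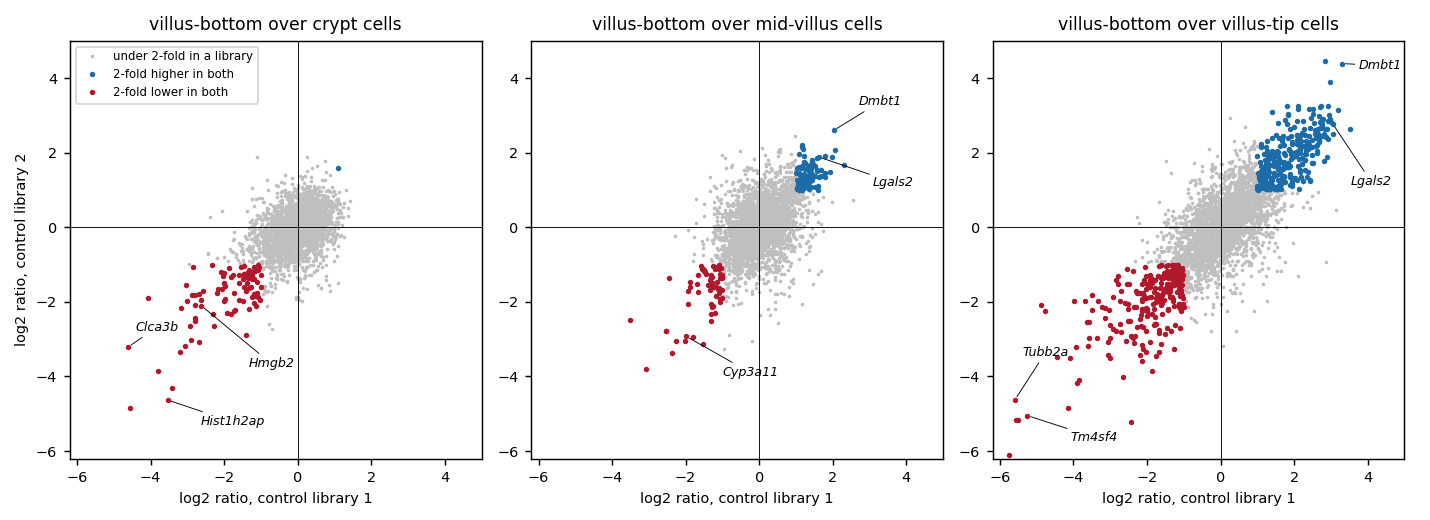
Log2 ratio of each gene in the villus-bottom gate over the crypt, mid-villus and tip gates, with control library 1 on the horizontal and control library 2 on the vertical axis, a point for each gene compared, genes of the rule included, and colour for genes at least 2-fold apart in both. Dmbt1 and Lgals2 lie above 0 in both libraries against mid-villus and tip cells, and Tm4sf4 lies far below 0 against tip cells, at a mean of -5.15.

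The genes lower at the bottom than at the tip began with Tm4sf4, a tetraspan membrane protein of intestine and liver. Tm4sf4 was at 33.8 and 28.6 CPM in villus-bottom cells, against 1660 and 1269 CPM in tip cells, a log2 ratio of -5.15 (SD 0.14). Tubb2a, a beta-tubulin, had 1 count over both libraries in villus-bottom cells and was 168-fold lower than in tip cells (95% counting interval 29.8 to 6657). Cldn4, a tight junction claudin, had 2 counts and was 50.1-fold lower (13.6 to 418). Tmem229b, Clca4a, Oasl1, Pmepa1 and Ptprr, with 1 to 3 counts each in the gate, were between 26.2-fold and 74.3-fold lower. All 3 MHC class II genes compared, which present antigen to CD4+ T cells, were lower. H2-Aa was at 116 and 28.6 CPM in villus-bottom cells, against 787 and 617 CPM in tip cells, and the invariant chain gene Cd74 at 116 and 5.73 CPM against 672 and 577 CPM. In the gate, 89 of 124 and 75 of 86 cells held no count of the 7 class II genes listed, and the gate of control library 2 held less of them (0.00859% of counts) than that of control library 1 (0.0314%). Of 11 MHC class I genes, B2m, H2-K1, H2-D1 and H2-Q1 were lower and 0 higher, with B2m at 1946 and 2096 CPM against 4677 and 4829 CPM.

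Of 23 fat absorption genes, 7 were lower at the bottom than at the tip and 0 higher, with a median log2 ratio of -0.67. Apoa4, an apolipoprotein of chylomicrons, was at 1328 and 1180 CPM in villus-bottom cells, against 8814 and 7206 CPM in tip cells. Apoa1 was at 4113 and 4364 CPM in villus-bottom cells, against 10560 and 11320 CPM in tip cells. Apob, the backbone protein of chylomicrons, the small apolipoproteins Apoc2 and Apoc3, and the lipid receptors Cd36 and Scarb1 were the others. Of 10 further tip genes, 7 were lower with a median of -2.67, among them the keratin Krt20, at 377 and 412 CPM against 3105 and 2577 CPM, and the transcription factor Klf4, at 67.6 and 40.1 CPM against 392 and 383 CPM. S100g, the calcium-binding protein calbindin-D9k, was at 2544 and 1604 CPM in villus-bottom cells, against 5736 and 5774 CPM in mid-villus and 8787 and 9801 CPM in tip cells. The immediate early genes Fos, Jun and Junb are also among these 7.

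Against the mid-villus cells, their neighbours above, the villus-bottom cells differed in fewer genes. Of 2973 genes compared, 86 were higher (2.89%) and 63 lower (2.12%), around a median log2 ratio of -0.00. Dmbt1 was again first, at 2650.4 and 4267 CPM in villus-bottom cells, against 642 and 697 CPM in mid-villus cells, a log2 ratio of 2.31 (SD 0.40). Lgals2 was at 729 and 922 CPM in villus-bottom cells, against 230 and 243 CPM in mid-villus cells (1.75, SD 0.18). Ptma, encoding prothymosin alpha, was at 246 and 475 CPM against 76.6 and 124 CPM, and Npm1, encoding the nucleolar protein nucleophosmin, at 164 and 195 CPM against 40.1 and 64.2 CPM. Tmsb4x, encoding the actin-binding thymosin beta-4, was at 840.0 and 899 CPM against 354 and 234 CPM, and Fam101b, an actin regulator, at 145 and 178 CPM against 43.8 and 50.4 CPM. The chaperone gene Hsp90ab1 was at 521 and 544 CPM in villus-bottom cells, against 212 and 215 CPM in mid-villus cells.

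Among the genes lower than in mid-villus cells were some of detoxification, transport and antigen presentation. Cyp3a11, a cytochrome P450 of drug metabolism, was at 290 and 172 CPM in villus-bottom cells, against 1179 and 1370 CPM in mid-villus cells, a log2 ratio of -2.46 (SD 0.66). Of 26 drug metabolism genes, Cyp3a11, Cyp3a13, Cyp2d26 and Abcb1a were lower and 0 higher, with a median of -0.56. The zinc transporter Slc30a2 was at 38.6 and 11.5 CPM against 161 and 156 CPM, and the glucocorticoid-regulated kinase Sgk1 at 261 and 80.2 CPM against 653 and 390 CPM. The class II gene H2-Ab1 was at 48.3 and 40.1 CPM against 204 and 128 CPM. Of 23 fat absorption genes, 19 were lower in both libraries, but only Fabp2, Cd36 and Scarb1 reached 2-fold in both, with a median of -0.66. Of 22 brush border genes 0 were higher, with a median of -0.48, and the peptidase gene Ace was among those lower. Defence genes did not set these neighbours apart, since of 12 compared only Lypd8 reached 2-fold, at 1627 and 2245 CPM in villus-bottom cells, against 792 and 1100 CPM in mid-villus cells, and the median was 0.11. Reg1 was at 14671 and 14513 CPM in villus-bottom cells, against 13200 and 15980 CPM in mid-villus cells, a difference that changed sign between the libraries.

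**Figure D3:**
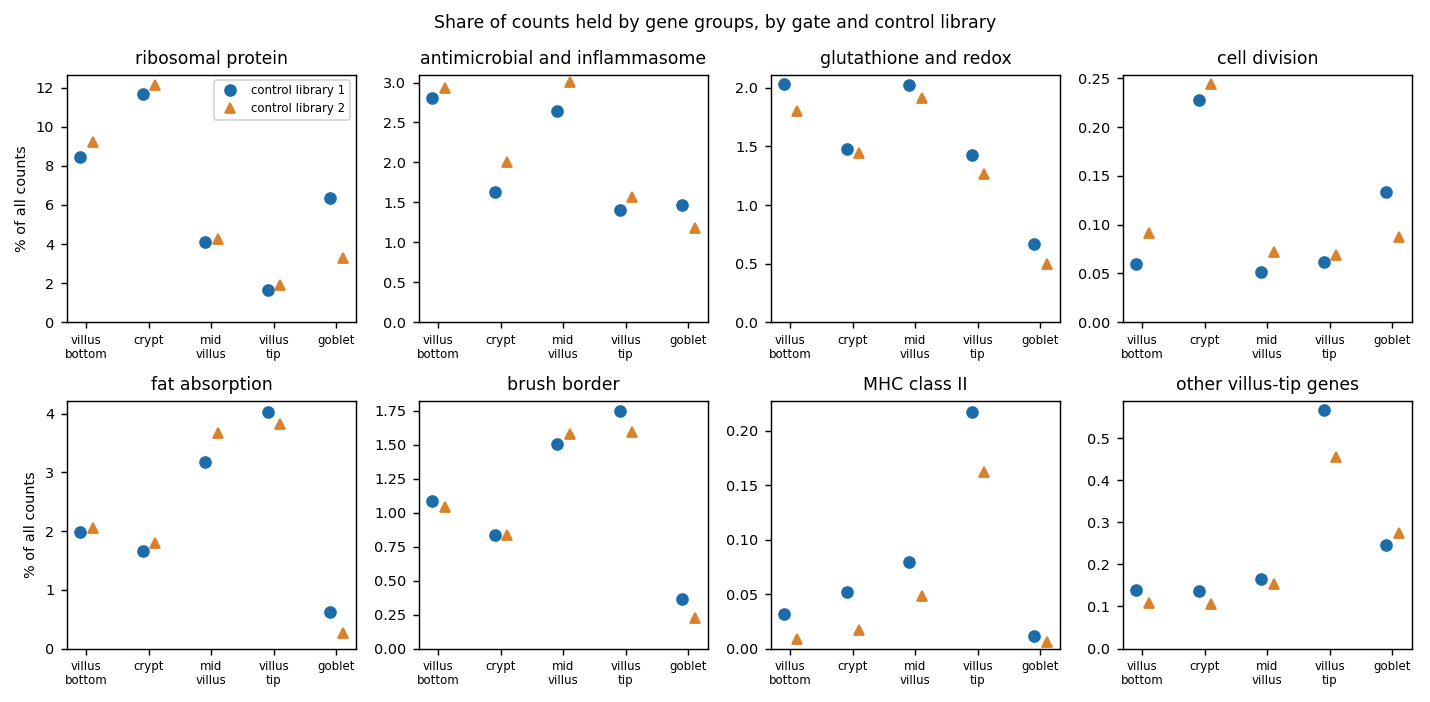
Share of all counts, in percent, that 8 groups of genes held in the villus-bottom, crypt, mid-villus, tip and goblet gates, with a point for each control library. Ribosomal protein genes stand at 8.46% and 9.24% of counts in villus-bottom cells and at 1.66% and 1.90% in tip cells, while fat absorption genes stand at 1.98% and 2.05% in villus-bottom cells and at 4.03% and 3.82% in tip cells.

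Against the crypt gate, the villus-bottom cells were mostly set apart by what they lacked. Of 3087 genes compared, 1 was higher (0.0324%) and 89 were lower (2.88%), around a median of -0.00. The gene that was higher, Cdkn2b, an inhibitor of cell cycle kinases, was at 77.2 and 51.6 CPM against 30.9 and 10.4 CPM. It was singled out after its values were seen, because its level is below that of the naming rule. The histone genes Hist1h2ap, Hist1h2ao and Hist1h2ai, which are made in DNA replication and are close copies of each other whose counts are uncertain, had 2, 1 and 1 counts in the gate and were 43.3-fold (95% counting interval 11.9 to 360), 63.6-fold (11.3 to 2526) and 64.7-fold (11.5 to 2568) lower. The calcium-activated chloride channel regulator gene Clca3b had 1 count and was 72.6-fold lower (12.9 to 2880). Of 10 cell division genes, Top2a, Mcm6, Stmn1, Hmgb2, Tubb5 and Tuba1b were lower, 0 were higher and the median was -2.29. Hmgb2, a chromatin protein of dividing cells, was at 29.0 and 51.6 CPM in villus-bottom cells, against 230 and 255 CPM in crypt cells (-2.36, SD 0.37). All 12 defence genes compared were above their crypt level in both libraries, but 0 of them by 2-fold in both, with a median of 0.59.

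Most cells of the crypt gate entered it through Cps1, a mitochondrial enzyme of the urea cycle. Of its 233 and 168 cells, 136 and 100 entered through Cps1 counts alone, and 59 and 35 held at least 2 counts of the other crypt genes. Set against those 59 and 35 cells, a comparison chosen after these counts were seen, the villus-bottom cells were higher in 325 and lower in 420 of 3316 genes. Then 16 of 17 cell division genes were lower (median -3.15), and 12 of 22 fat absorption, 9 of 21 brush border, 16 of 23 drug metabolism and 8 of 12 defence genes were higher. Reg1 was at 14671 and 14513 CPM in villus-bottom cells, against 2287 and 831 CPM in these crypt cells. Dmbt1 and Lgals2 had the opposite direction, with Dmbt1 at 2650.4 and 4267 CPM in villus-bottom cells, against 4739 and 6808 CPM in these crypt cells, and Lgals2 at 729 and 922 CPM against 1133 and 1300 CPM, neither by 2-fold. Dmbt1 and Lgals2 thus stepped down from these crypt cells over the villus-bottom and mid-villus gates to the tip, whereas Reg1 stood low in the crypt cells and high in the villus-bottom and mid-villus gates.

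Ribosomal protein genes made up much of what set the villus-bottom cells apart from the cells above them. These 84 genes were grouped after their values had been seen, and many have near-identical pseudogene copies, so single members are uncertain. They held 8.46% and 9.24% of counts in villus-bottom cells, against 11.7% and 12.1% in the crypt, 4.12% and 4.26% in the mid-villus and 1.66% and 1.90% in the tip gate. Of 81 compared, 35 were higher than in mid-villus cells (40.7% of all genes higher there, 41.7% of the 84), with a median log2 ratio of 1.05. Against the tip, 77 were higher (26.9% of all genes higher there, 91.7% of the 84), with a median of 2.30. Rpl27a, for example, was at 1598 and 1586 CPM in villus-bottom cells, against 198 and 189 CPM in tip cells. Against the crypt gate 0 of 81 differed by 2-fold, with a median of -0.44, and against the crypt cells with counts beyond Cps1, 33 were lower with a median of -1.10. Without these 84 genes, 51 genes were higher than in mid-villus cells and 209 higher than in tip cells. Pseudogene copies are outside the 84, and Rpl23a-ps3, higher than in tip cells, is among the 209.

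The 210 cells differed among themselves along the same line. The ribosomal share ran over 0.910%, 7.74% and 20.8% of a cell's counts (lowest, median and highest) in control library 1 and over 1.44%, 8.97% and 21.9% in control library 2. The fat absorption genes ran over 0.261%, 1.83% and 6.62% in control library 1 and over 0.0841%, 1.88% and 5.19% in control library 2. Cells with more ribosomal counts held fewer counts of fat absorption genes, with a Spearman correlation over cells of -0.76 in control library 1 (124 cells) and -0.69 in control library 2 (86 cells). The same held for brush border genes (-0.57 and -0.73) and drug metabolism genes (-0.53 and -0.53), less for defence genes (-0.35 and -0.37) and glutathione and redox genes (-0.17 and -0.37). Total counts were weakly related to the ribosomal share (0.13 and 0.17). Shares of the same total pull against each other and the cells of a library share its preparation, so these correlations are descriptions.

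**Figure D4:**
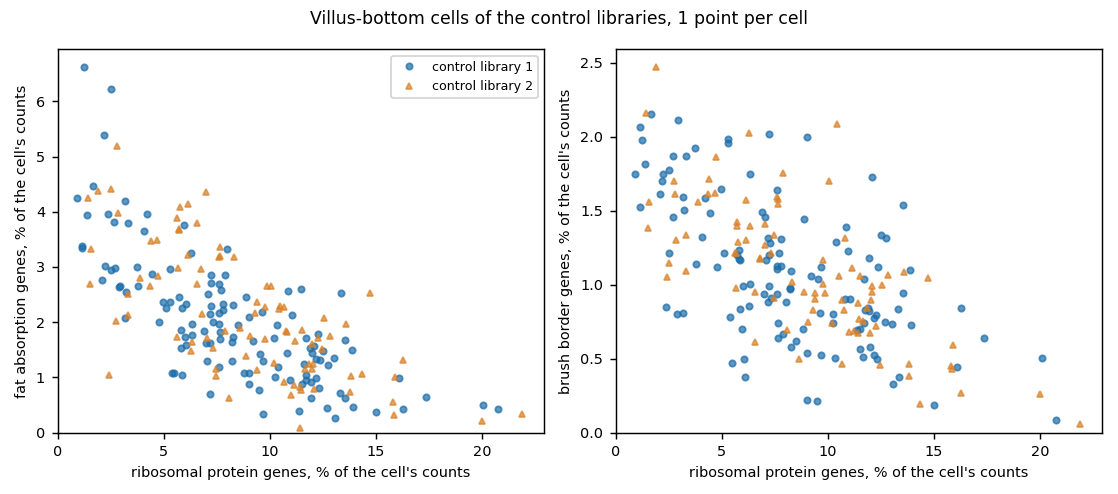
Percent of a cell's counts in ribosomal protein genes (horizontal axis) against percent in fat absorption and brush border genes (vertical axes), with a point for each of the 124 and 86 villus-bottom cells of the control libraries. The points run from cells rich in ribosomal counts and poor in absorption genes to the opposite, at Spearman correlations of -0.76 and -0.69 for fat absorption.

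Barcodes of 500 to below 1000 counts, which the rule did not use, gave a check in other cells of the same libraries. The gate took 117 of 616 and 35 of 335 of them. All 10 genes named as lower than in the crypt were lower on average, as were the 10 named as lower than in the tip, and the 10 named as higher than in the tip were higher. Of the 10 named as higher than in mid-villus cells, 9 were higher, all but Fam101b. Of the 10 named as lower, 9 were lower, all but Lrrc8b, and 6 reached 2-fold. In both libraries the direction held for 9 of the 10 lower than in the crypt. Against mid-villus cells it held in both for 9 of those higher and 8 of those lower, and against the tip for all 10 each way. The median log2 ratio of the 10 genes was 2.20 in these barcodes, against 1.62 in the 210 cells, for those higher than in mid-villus cells and -1.24 against -1.81 for those lower. Against the tip it was 2.06 against 2.99 for those higher and -2.44 against -3.81 for those lower, and against the crypt -2.79 against -2.89 for those lower. Dmbt1, Lgals2 and Tm4sf4 are among the genes that kept their direction.

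In the Lats-deleted libraries few cells passed the same gate. It held 30 of 726 cells, 4.13% (exact 95% interval 2.81 to 5.85), of Lats-deleted library 1 and 52 of 1289 cells, 4.03% (3.03 to 5.26), of Lats-deleted library 2. It held 124 of 774 cells, 16.02% (13.5 to 18.8), of control library 1 and 86 of 515 cells, 16.7% (13.6 to 20.2), of control library 2. The share averaged 4.08% ± 0.0694 in Lats-deleted libraries and 16.4% ± 0.480 in control libraries (SD, n = 2 each), a difference of -12.3 percentage points. The groups did not overlap, but the two-sided exact permutation test gave p = 0.3333, the smallest that 2 against 2 libraries allow. At least 2 marker counts, before any other condition, were found in 9.78% and 7.60% of cells of the Lats-deleted libraries, against 60.6% and 62.5% in control. The kept cells of the Lats-deleted libraries were deeper, with medians of 3715.5 and 3848 counts against 1708 and 1995 in control, and with all cells thinned to 1000 counts before the gate the difference was -24.1 points.

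The cells that passed the gate after Lats deletion held few enterocyte transcripts. Only 1 of the 5 markers was seen in 53.3% and 71.2% of them, against 16.1% and 12.8% of the control cells, and Pycard was present in 23 of 30 and 43 of 52. The enterocyte markers held 0.633% and 0.160% of their counts, against 2.73% and 2.87% in control. So the label of an early enterocyte was not borne out there, and the comparison of the gate between genotypes sets unlike cells side by side. Of the targeted genes, Lats1 had 3 counts in the gate after deletion and 12 in control, 4.74-fold lower (95% counting interval 1.28 to 26.2), and Lats2 had 8 and 2 counts, 3.37-fold higher (0.673 to 32.6). Where the counted 3′ tags lie relative to the deleted exons is not given in the labels, so these counts check the labels little. Xist, the RNA of the inactive X chromosome in female cells, was at 1079 and 597 CPM after deletion and 6.23 and 0 CPM in control, so that the sex of the mice and the genotype cannot be told apart. The median gated cell held 4224.5 and 5407 counts after deletion, against 1440 and 1965.5 in control, and its mitochondrial share was 6.63% and 4.25%, against 9.52% and 6.46%. The part of the mitochondrial share in the changes was not tested.

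Of 3536 genes tested in the gate with the edgeR quasi-likelihood test (Benjamini-Hochberg adjusted p under 0.05), 596 were higher (16.9%) and 711 lower (20.1%) after Lats deletion, around a median log2 fold change of 0.05. CPM of single genes in this comparison and the next, and those of Xist above, are on TMM-scaled library sizes. Folds with a counting interval or a floor of counts, and summed levels of lists, use totals without that scaling. The list counts below are to be read against these shares. The 15 enterocyte genes fell in 14 cases and rose in 1, with a median of -3.66. Apoa1 was at 1564 and 289 CPM in Lats-deleted cells, against 5307 and 5358 CPM in control cells (log2 fold change -2.55, SE 0.58, adjusted p = 0.00426). Krt20, the member that rose, was at 1022 and 1002 CPM against 486 and 506 CPM (1.03, SE 0.29, adjusted p = 0.0146). All 23 drug metabolism genes tested, 19 of 20 fat absorption genes and 18 of 22 brush border genes fell. The number of calls depended on the processing, with 566 with DESeq2 and 178 (138 higher and 40 lower) when cells were thinned to 1000 counts before the gate. Thinning left 19 and 14 Lats-deleted cells in the gate, below the minimum of 20 cells a library set for this test. Fewer cells and lower depth cannot be told apart there.

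Of 12 defence genes, 7 fell and 0 rose after deletion, with a median of -1.63. Reg1 was at 2572 and 246 CPM in Lats-deleted cells, against 18928 and 17817 CPM in control cells (-3.72, SE 0.76, adjusted p = 0.00222). Casp1 and Nlrp6 also fell, with Casp1 at 35.7 and 11.7 CPM against 156 and 225 CPM (adjusted p = 0.0013) and Nlrp6 at 100.0 and 3.90 CPM against 318 and 274 CPM (adjusted p = 0.00858). Lypd8 did not pass, at 1486 and 261 CPM against 2099 and 2756 CPM (adjusted p = 0.0571). Dmbt1 was at 1086 and 2153 CPM in Lats-deleted cells, against 3419 and 5238 CPM in control cells (-1.41, SE 0.38, adjusted p = 0.0118), and Lgals2 at 250.03 and 105 CPM against 940 and 1132 CPM (-2.60, SE 0.40, adjusted p = 0.00042). Gpx1 fell, at 1072 and 1080 CPM against 2298 and 2081 CPM (adjusted p = 0.0173), while Gsta1 did not pass, at 1807 and 4981 CPM against 7113 and 5435 CPM (adjusted p = 0.125).

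Among the genes that rose most were Clu, Ly6a and Ctgf, which are known from regenerating or YAP-active epithelium. S100a6, a calcium-binding S100 protein, was at 12273 and 14353 CPM in Lats-deleted cells, against 24.9 and 14.1 CPM in control cells (9.35, SE 0.50, adjusted p = 6.07e-07). Clu, encoding clusterin, was at 2922 and 4197 CPM against 0 and 7.03 CPM, from 1 count in control. On pooled totals without TMM scaling that is a 1252-fold ratio (95% counting interval 224 to 49493). Ly6a, encoding the surface antigen Sca-1, was at 2815 and 1307 CPM against 0 in both control libraries, at least 205-fold higher with a floor of 3 counts over the group. Msln, Psca, Anxa3, Mal and Ctgf, also at 0 in both control libraries, were at least 166-fold, 136-fold, 103-fold, 90.8-fold and 53.4-fold higher. Of 11 Hippo and YAP genes tested, 10 rose and 0 fell, several of them with no count in control, so no median fold is given. Of 13 cell division genes 10 rose, and of 11 further tip genes 10 rose. Among the largest decreases were those of Hsd17b13, Fbp1 and Slc16a10, at 0 in both Lats-deleted libraries and at least 14.6-fold, 13.8-fold and 13.0-fold lower, and of Usp2, Tgfbi, Ugt2b5 and Tmem252. The calls of these 7 ended when cells were thinned to 1000 counts before the gate, with adjusted p of 0.0949 to 0.532. That setting left 19 and 14 Lats-deleted cells, and the part of the cell number in the lost calls was not tested.

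**Figure D5:**
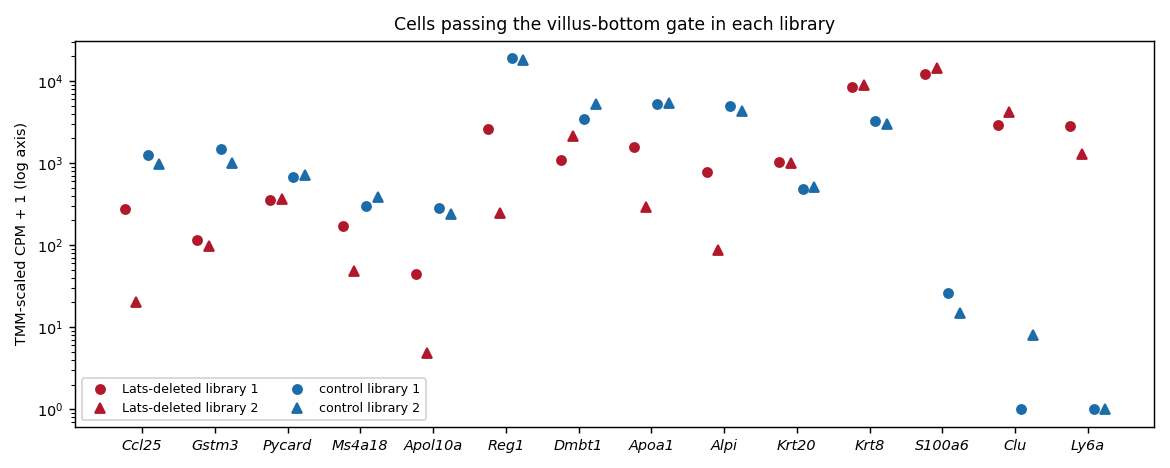
TMM-scaled CPM plus 1, on a log axis, of the 5 markers and further named genes in the villus-bottom gate, with points for Lats-deleted libraries 1 and 2 left of those for control libraries 1 and 2. The 5 markers are genes of the rule and carry no test. S100a6 stands at 12273 and 14353 CPM in Lats-deleted cells and at 24.9 and 14.1 CPM in control cells, and Reg1 at 2572 and 246 CPM in Lats-deleted cells and at 18928 and 17817 CPM in control cells.

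The gates were also compared within the Lats-deleted libraries. Because their villus-bottom gate held few enterocyte transcripts, and cell division genes at a sum of 3214 and 5330 CPM against 594 and 916 CPM in control, the comparison describes these gates and does not test a place along the villus. Their 30 and 52 villus-bottom cells were set against 38 and 41 cells of their mid-villus and tip gates together, with the library as a block. Of 3520 genes, 35 were higher (0.994%) and 110 lower (3.12%) in the villus-bottom cells (edgeR, adjusted p under 0.05), with 532 at an unadjusted p under 0.05. Pycard, Ada, Slc28a2, Enpp3, Cybrd1 and Lct are among the calls and carry no test, since they are genes of the rule. Dmbt1 was higher, at 1159 and 2231 CPM in villus-bottom cells, against 700 and 969 CPM in mid-villus and tip cells (0.98, SE 0.23, adjusted p = 0.00472). Lgals2 did not pass, at 267 and 109 CPM against 262 and 183 CPM (-0.34, SE 0.36, adjusted p = 0.738). Ptma was at 2448 and 3582 CPM against 677 and 1982 CPM (1.32, SE 0.21, adjusted p = 9.69e-06). Dmbt1 and Ptma differed in the same direction as in the control libraries, and Lgals2 was not shown to. The villus-bottom gate holds unlike cells in the 2 groups, so a shared direction, here and below, does not speak for the control pattern. The cell division genes Cenpa, of a centromeric histone, and Rrm1, of ribonucleotide reductase, were also higher, with Cenpa at 114 and 117 CPM against 0 and 22.1 CPM (adjusted p = 0.00624) and Rrm1 at 99.2 and 170 CPM against 23.1 and 60.9 CPM (adjusted p = 0.0408).

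Of the genes named in the control comparisons, the 10 higher than in mid-villus cells gave 4 calls in the same direction (Dmbt1, Rpl12, Ptma and Rpl8), and the 10 higher than in tip cells also gave 4 (Dmbt1, Rpl14, Rpl12 and Rpl27a). Of those lower than in mid-villus cells 3 could be tested and Cyp3a11 was called, and of those lower than in tip cells 6 could be tested and Tm4sf4 and Clca4a were called. In both cases 0 were called in the other direction. Tm4sf4 was at 610.2 and 113 CPM in villus-bottom cells, against 1201 and 941 CPM in mid-villus and tip cells (-1.92, SE 0.32, adjusted p = 1.45e-05). S100g, at 183 and 28.3 CPM against 3471 and 830 CPM, had a log2 ratio of -4.46 (SE 0.30, adjusted p = 7.45e-17), and Apoa1, at 1670 and 299 CPM against 5395 and 3792 CPM, differed by -2.63 (SE 0.25, adjusted p = 1.72e-11). The list counts that follow are to be read against 0.994% higher and 3.12% lower of all 3520 genes. Of the ribosomal protein genes tested, 12 of 81 were higher, 0 were lower and all 81 lay above 0, with a median of 0.58. Of 23 listed fat absorption genes 12 were lower, of 15 enterocyte genes 11 and of 24 brush border genes 6, with 0 higher in these 3 lists. Of 25 listed defence genes 5 were lower (Reg1, Reg3b, Reg3g, Lypd8 and Plac8) and 0 higher. Lypd8 was at 1586 and 271 CPM against 2239 and 1672 CPM (-1.51, SE 0.28, adjusted p = 0.000147). Not all listed genes could be tested, so counts out of listed genes are not shares of tested genes, as 0.994% and 3.12% are. With DESeq2 33 genes were called, 1 higher and 32 lower, and without the library block edgeR called 0, with 197 at an unadjusted p under 0.05.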

How the data were processed

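The authors deposited 1 table a library, with a barcode a line and a gene symbol a column, per the file headers. The deposited values are counts a gene and barcode, whole numbers that the authors did not normalize, as their differing totals show; whether they count molecules or reads is not stated. Bowtie, SAMtools 1.3.1, RSEM 1.3.0 and the build mm10 are named without roles, per the submitters' processing notes. Of 25289 gene columns, 24560 (97.1%) matched GENCODE M21.

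Counts were summed over the cells of a gate and library. The crypt gate needed at least 2 crypt gene counts, the mid-villus gate at least 3 mid-villus counts, and the tip gate at least 2 tip counts, with the limits on other genes kept. Doublets were not called. Control gates were compared by log2 ratios, and the rest with edgeR 4.0.16 in R 4.3.3 (quasi-likelihood test, TMM, filterByExpr, Benjamini-Hochberg, threshold 0.05); the code was tested on simulated data. Named genes are the 10 highest and 10 lowest mean ratios among genes that differed, with at least 100 CPM in the higher gate, without genes of the rule, predicted genes and mitochondrially encoded genes. For the Lats effect they are the 8 largest changes in each direction with at least 50 CPM and no overlap, and for each list up to 4 members with the most counts in the gate. Further list members that differed are named with their list's count. Some genes that these rules reach are not reported here.

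The cells, the 33 gene lists and the rules were chosen with earlier results of these data known. The intervals cover counting error only. Libraries with the same number are not paired by the labels. Alternatives were DESeq2 1.42.0, other size factors, filters, gates, depths and leaving out a library. Epcam and 7 genes of the lists have no column of that symbol and were not analysed here.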

Additional observations from a re-analysis of the deposited data

Results flagged for a closer look

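Opposite directions were sought only in genes named against mid-villus or tip cells and in the named members of lists other than those of the rule. Each library needed at least 50 CPM in the higher gate. In 8 of these genes the villus-bottom cells of both Lats-deleted libraries lay below their mid-villus and tip cells together, and those of both control libraries above. This pattern was not tested. Its share over all genes was not computed, so the number 8 shows no excess. The values are mean log2 ratios of Lats-deleted minus control libraries. For Lypd8 it was -3.11, from ratios of -0.42 and -2.59 in Lats-deleted and 1.68 and 1.53 in control libraries. For Reg1 it was -2.21, from -0.24 and -3.30 in Lats-deleted and 0.64 and 0.24 in control libraries. For Fabp1, a fatty acid-binding protein, it was -2.35, from -0.70 and -3.30 in Lats-deleted and 0.37 and 0.33 in control libraries. For Rbp2, the retinol-binding protein of enterocytes, it was -2.18, from -0.94 and -3.26 in Lats-deleted and 0.14 and 0.03 in control libraries. The polymeric immunoglobulin receptor gene Pigr gave -1.16, Plac8 -0.75, the amino acid transporter subunit gene Slc3a2 -0.55 and the retinaldehyde dehydrogenase gene Aldh1a1 -0.43. Some ratios lay near 0, with Slc3a2 at -0.05 in Lats-deleted library 1 (36 and 39 counts) and Aldh1a1 at 0.09 and 0.02 in control libraries. The pooled mid-villus and tip cells numbered 148 and 163, and 101 and 84, in control libraries 1 and 2. In Lats-deleted libraries 1 and 2 they numbered 9 and 29, and 8 and 33. The part of this mix was not tested. The enterocyte markers held 0.633% and 0.160% of the counts of the villus-bottom gate in the Lats-deleted libraries and 2.73% and 2.87% in the control libraries, and their part in this pattern was not tested.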

How the results depend on the processing

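The number of genes that differed depended on the processing more than their direction did. Against the crypt gate 90 genes differed (1 higher, 89 lower), 190 (28 higher, 162 lower) with cells thinned before the gate, 314 with no minimum CPM, 429 in barcodes of 500 to below 1000 counts and 745 against crypt cells with counts beyond Cps1, the last a smaller set, and 338 to 379 in 1 library alone. Against mid-villus cells 149 differed, 224 thinned, 309 with no minimum CPM, 416 in barcodes of 500 to below 1000 counts and 441 to 748 in 1 library alone. Against tip cells 542 differed, 871 with no minimum CPM and 1027 to 1360 in 1 library alone. The ratios of single genes stayed within the spread between libraries in 416 cases, moved in 132 and changed sign in 2. Leaving out 1 library or the minimum CPM cannot move a ratio beyond that spread. The 50 values of each such setting thus counted as within it by arithmetic. Thinning before the gate moved 27 ratios and left 23, and barcodes of 500 to below 1000 counts moved 34. The 2 sign changes were Fam101b (-0.23) and Lrrc8b (0.10) against mid-villus cells in those barcodes, and the cause was not tested. The pseudocount of 1 CPM, those barcodes and the narrower crypt cells were added after the data were seen. The 210 cells became 71 with at least 2000 counts, 327 when thinned and 134 with the markers Apol10a, Ms4a18 and Ccl25 alone.

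The share differed by -12.3 points, by -24.1 to -8.25 over the alternatives and by -12.6 to -11.9 without each library. The Lats effect gave 1307 calls, 566 with DESeq2, 178 thinned, 658 with at least 3 marker counts, 147 with the 3 markers alone (13 and 5 Lats-deleted cells), and 790 to 1622 without each library, 790 without control library 1. With no filter on low counts 760 were higher and 673 lower. Of single genes, 168 values kept their call and 9 lost it, of which 8 when thinned. The comparison in Lats-deleted libraries gave 145 calls, 33 with DESeq2 and 0 without the library block, and leaves no residual degree of freedom when a library is left out. Same-numbered libraries did not deviate together (correlation 0.03), so the replicate block pairs them by number only; with it the Lats effect gave 1287 calls and the share a difference of -12.3 points (exact p = 0.5). The low depth of the gate limits genes under 50 CPM.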
